A study of Homo sapiens with 6 samples.

Results

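Eph receptors and their membrane-bound ligands, the ephrins, were examined in SW-1990, a long-established human line of pancreatic adenocarcinoma cells that came from a spleen metastasis. The members were 6 receptor genes (EPHA1, EPHA2, EPHA4, EPHB2, EPHB3 and EPHB4) and 4 ligand genes (EFNA1, EFNA4, EFNB1 and EFNB2), found through the probe sets annotated with that gene symbol alone. This gave 18 probe sets for 9 of the 10 genes, out of 41091 probe sets for 19775 genes. EPHB2 was not analysed here. Where a gene had several probe sets, the brightest on average over the 6 arrays stood for it.

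The sh-Ctrl cells carried a lentiviral scrambled short hairpin RNA (shRNA), and the sh-PRLR cells carried a lentiviral shRNA against PRLR, the prolactin receptor. Both had been selected with puromycin at 1 μg/ml for more than 7 days, and each group had 3 arrays, given in the labels as biological replicates. Both groups derive from 1 cell line, and the labels do not say whether the replicates came from separate infections. The question is how the transcripts of this family respond when PRLR is knocked down. Values are given as log2 expression and changes as sh-PRLR minus sh-Ctrl. Errors are SD over 3 arrays, or SE where named. In bulk RNA, a change in the number of cells that express a gene and in the amount per cell cannot be told apart.

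Eph receptors form the largest family of receptor tyrosine kinases, and both they and the ephrins sit in the plasma membrane, so signalling needs contact between cells. A-type ephrins are held by a lipid anchor and bind mainly EphA receptors, whereas B-type ephrins span the membrane and bind mainly EphB receptors. Binding starts a forward signal through the receptor and a reverse signal through the ephrin, which together steer cell adhesion, repulsion and migration. In epithelia, EphB receptors and B-type ephrins help to sort cells along the intestinal crypt, and EPHA2 is often abundant in carcinomas.

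PRLR, the targeted gene, had 7 probe sets, and all had a lower mean in sh-PRLR, by 0.18 to 1.82. The brightest, 227629_at, read 5.75, 5.36 and 5.97 with sh-Ctrl against 5.63, 5.71 and 5.05 with sh-PRLR, with overlapping groups and below the level of 5.93 under which the dimmest 40% of genes fell. Probe set 231981_at, named after its values were seen, read 6.38, 6.27 and 5.77 against 4.70, 4.83 and 5.0. In 3 of the 7 the groups did not overlap, while 0 passed by limma (smallest adjusted p = 0.0948 across the 41091 probe sets, with 2 at an unadjusted p under 0.05), so the knockdown itself is seen here only at dim probe sets. Of all 41091 probe sets, 22.6% had groups that did not overlap and 6972 had an unadjusted p under 0.05. Of 7 epithelial markers, 6 (all but MUC1) lay above the median gene level, and 4 were higher and 3 lower in sh-PRLR. By limma 1 of the 7 passed, where 14.6% of genes above the median level did. This was CDH1, which encodes E-cadherin and fell from 14.00 ± 0.04 to 13.83 ± 0.02 (limma adjusted p = 0.0284, and 0.293 with default settings). Of 11 measured markers of other cell types, 2 lay above the median gene level (COL1A1 and PECAM1) and 0 passed by limma in either setting. Among these 11, 1 had an unadjusted p under 0.05, as had 4010 of the 19775 genes. The summed level of these 11 ran from 8.98 to 9.23 over the sh-Ctrl arrays and from 9.0 to 9.64 over the sh-PRLR arrays, with overlapping groups, and its part in the results was not tested. No array stood apart, as mean correlations with the arrays of the same group ran from 0.953 to 0.955. Those with the arrays of the other group were nearly as high, from 0.950 to 0.953.

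In sh-PRLR cells EPHA2 rose, and it was the only 1 of the 9 measured members to pass the test at the main settings. The test was limma with a variance that depends on the expression level, with p-values adjusted by Benjamini-Hochberg across the 19775 genes, called at 0.05. Over all genes, 7.66% passed in either direction, 3.34% higher and 4.32% lower, while among the 9887 genes above the median level 14.6% passed. Of the called genes 43.6% were higher, which became 57.6% with each array centred on its median gene and 28.4% with centring on the median of all probe sets. One called member of 9 is therefore close to the share of called genes at large. With limma's default settings, under which 0.0202% of genes passed, 0 of the 9 members passed. In that fit 1 member had an unadjusted p under 0.05, as had 3209 of the 19775 genes. The median change was -0.024 over the 9 members and -0.0013 over all genes, with 4 members higher and 5 lower.

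EPHA2, a receptor that binds A-type ephrins and can also signal without ligand, was read by probe set 203499_at. Its values were 12.14, 12.22 and 12.24 on the sh-Ctrl arrays against 12.59, 12.61 and 12.55 on the sh-PRLR arrays. All 3 sh-PRLR arrays lay above all 3 sh-Ctrl arrays, and the gap between the groups was several times the spread within either. The means were 12.20 ± 0.05 and 12.58 ± 0.03, a log2 change of 0.38 (SE 0.05, limma adjusted p = 0.00135). On the linear scale this is 1.31-fold, with a 95% interval of 1.21 to 1.41. The limma adjusted p was 0.110 with default settings and 0.0962 when each array was centred on the median of all its probe sets, so the call was lost under both, with changes of 0.38 and 0.35. Under that centring 2.55% of genes passed. Leaving out any single array kept the call, with changes from 0.35 to 0.41.

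**Figure D1:**
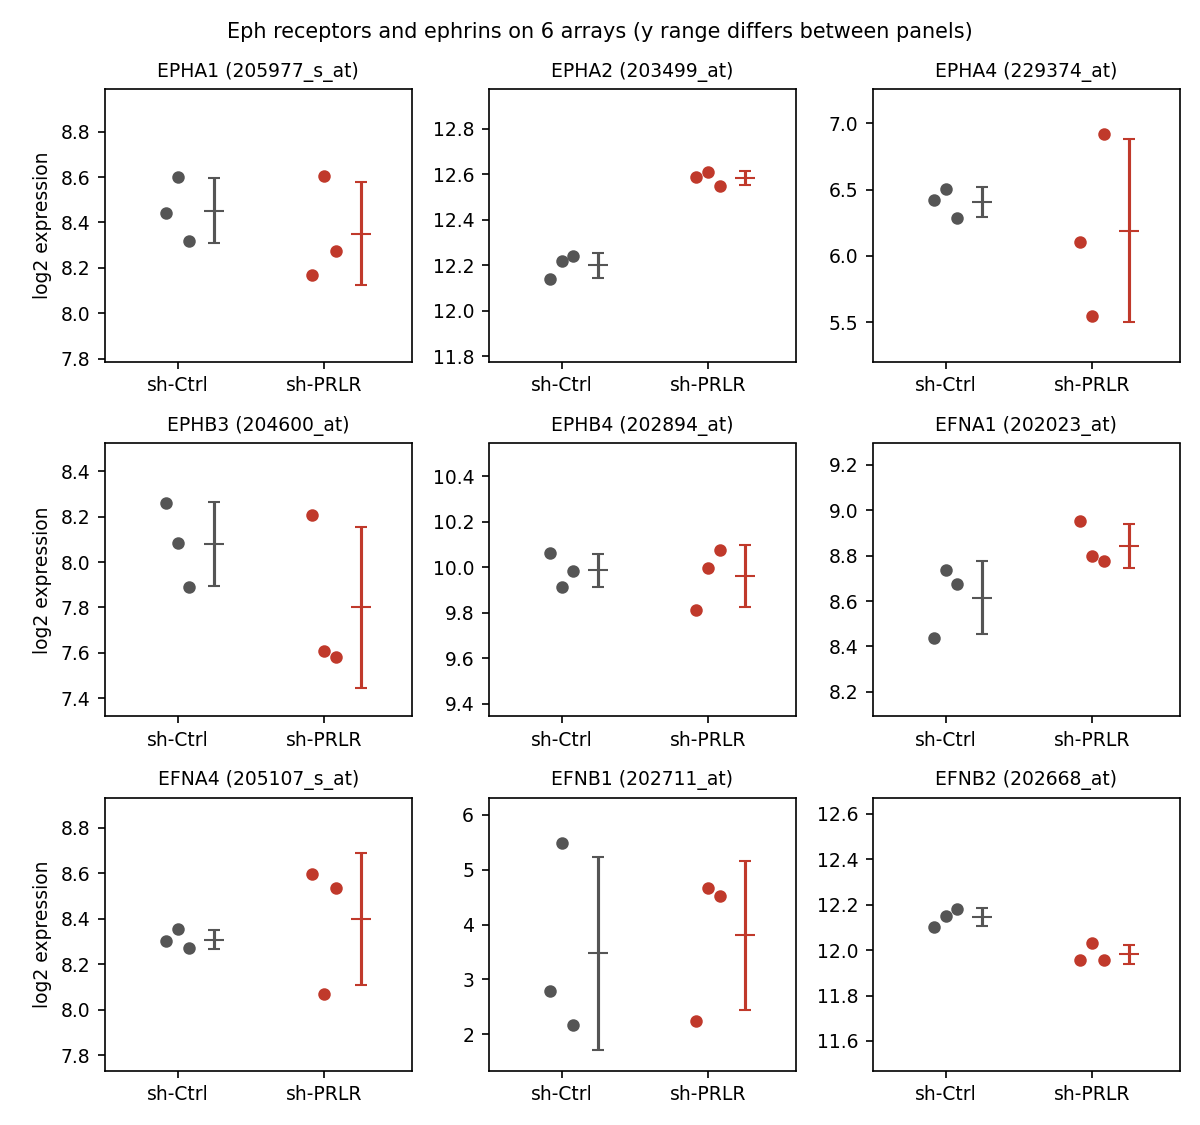
Log2 expression of the 9 measured members, 1 panel per gene, on the 3 sh-Ctrl arrays (grey) and the 3 sh-PRLR arrays (red), with the mean and SD of each group beside the points; the y range differs between panels. The groups are apart in EPHA2, EFNA1 and EFNB2, and overlap in the other panels.

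Among the other receptors, EPHB3, a receptor of B-type ephrins and a marker of the intestinal crypt base, read 8.26, 8.08 and 7.89 in sh-Ctrl. Its sh-PRLR values were 8.21, 7.61 and 7.58, so that replicate 1 lay among the controls and the other two below them. The change of -0.28 (SE 0.19, 95% interval -0.70 to 0.15) did not pass (limma adjusted p = 0.482). Its second probe set, 1438_at, gave -0.33 with overlapping groups and did not pass either (limma adjusted p = 0.659 across the 41091 probe sets).

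EPHB4, the receptor that pairs with ephrin-B2 in arteriovenous patterning, read 10.06, 9.91 and 9.99 on the sh-Ctrl arrays against 9.81, 9.998 and 10.08 on those of sh-PRLR. The groups overlapped fully, and the change was -0.024 with a 95% interval of -0.22 to 0.17, which does not reach the 0.38 measured for EPHA2. Its dimmer probe set, 216680_s_at, gave 0.16 with overlapping groups and a 95% interval of -0.30 to 0.63, which includes 0.38. EPHA1, the first Eph receptor to be identified, read 8.44, 8.60 and 8.32 against 8.17, 8.60 and 8.28. Its change of -0.10 had a 95% interval of -0.42 to 0.22, while its other probe sets gave 0.25 (241482_at) and -1.12 (215804_at, below 5.93). They differed in sign, and none of the 3 passed.

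EPHA4, a receptor that binds ephrins of both types, was read by 5 probe sets, all below the median gene level of 7.23. The brightest, 229374_at, read 6.42, 6.51 and 6.29 with sh-Ctrl against 6.11, 5.55 and 6.92 with sh-PRLR, so that the sh-PRLR arrays lay on both sides of the controls. The largest difference among them was at 206114_at, which read 5.29, 5.26 and 4.53 against 2.32, 4.60 and 1.62. Its change of -2.18 (SE 0.89) did not pass (limma adjusted p = 0.235 across the 41091 probe sets), and its mean level of 3.94 lay below 5.93. The other 4 probe sets gave changes from -0.54 to 0.64.

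Among the ligands, EFNA1 encodes ephrin-A1, a main ligand of EPHA2. Probe set 202023_at read 8.44, 8.74 and 8.67 with sh-Ctrl against 8.95, 8.80 and 8.77 with sh-PRLR, with every sh-PRLR array above every sh-Ctrl array. The gap between the nearest arrays was small beside the spread within sh-Ctrl, and the change of 0.23 (SE 0.12, 95% interval -0.034 to 0.49) did not pass (limma adjusted p = 0.322). EFNA4, which encodes ephrin-A4, read 8.30, 8.35 and 8.27 against 8.60, 8.07 and 8.54, with 2 sh-PRLR arrays above and 1 below the controls. Its change was 0.091 (95% interval -0.25 to 0.43).

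EFNB1, which encodes ephrin-B1, was read by 1 dim probe set, at 2.80, 5.48 and 2.17 with sh-Ctrl against 2.24, 4.66 and 4.51 with sh-PRLR. With an SD of 1.76 in sh-Ctrl, no change of the size seen for EPHA2 could have been detected.

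EFNB2 encodes ephrin-B2, the ligand that pairs with EPHB4. Its brighter probe set, 202668_at, read 12.10, 12.15 and 12.18 with sh-Ctrl against 11.96, 12.03 and 11.96 with sh-PRLR. All sh-PRLR arrays lay below all sh-Ctrl arrays, by a small step. The change of -0.16 (SE 0.05, 95% interval -0.27 to -0.051) did not pass (limma adjusted p = 0.0837), and passed at 0.0483 when the dimmest 40% of genes were left out, where 17.1% of genes passed. The other probe set, 202669_s_at, read 8.35, 8.15 and 8.52 against 8.69, 8.51 and 8.78. Its change of 0.32 (SE 0.13) had the opposite sign, with overlapping groups, and did not pass (limma adjusted p = 0.244 across the 41091 probe sets).

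The difference between the EFNB2 probe sets, 202669_s_at minus 202668_at, was -3.75, -4.0 and -3.66 on the sh-Ctrl arrays against -3.27, -3.52 and -3.17 on those of sh-PRLR. The groups did not overlap, and its mean was higher by 0.48 in sh-PRLR (two-sided exact permutation p = 0.1, the lower limit with 3 arrays a group). This pair was looked at after its values were seen. Of the other members with 2 probe sets, EPHB3 gave -0.055 (exact permutation p = 0.9) and EPHB4 gave 0.19 (exact permutation p = 0.5) in the same measure, both with overlapping groups. With EFNB2 averaged over both probe sets, the change was 0.079, in place of -0.16, so no direction is given for this gene.

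**Figure D2:**
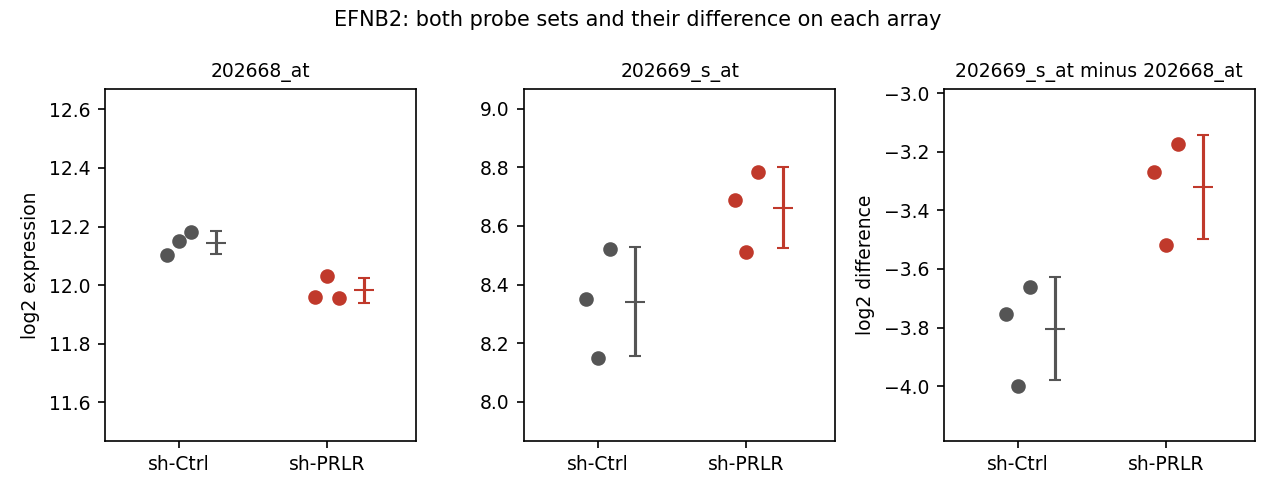
Log2 expression of EFNB2 at probe sets 202668_at (left) and 202669_s_at (middle), and the log2 difference of the second minus the first (right), on the 3 sh-Ctrl arrays (grey) and the 3 sh-PRLR arrays (red), with mean and SD. The sh-PRLR mean lies below the sh-Ctrl mean at the first probe set and above it at the second, and their difference averaged -3.80 ± 0.18 for sh-Ctrl against -3.32 ± 0.18 for sh-PRLR.

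Of the 18 member probe sets, 1 passed in the fit across the 41091 probe sets, that of EPHA2, where 4.67% of them passed. In 3 of 18 the groups did not overlap, 2 higher and 1 lower, where the share was 22.6% of all such probe sets. Over genes these were 3 of 9, against 25.8% of all genes. Neither count stands out from its background. At the 5 probe sets below the level of 5.93 the changes ran from -2.18 to 0.64 and every interval was wider than that of any brighter member probe set.

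**Figure D3:**
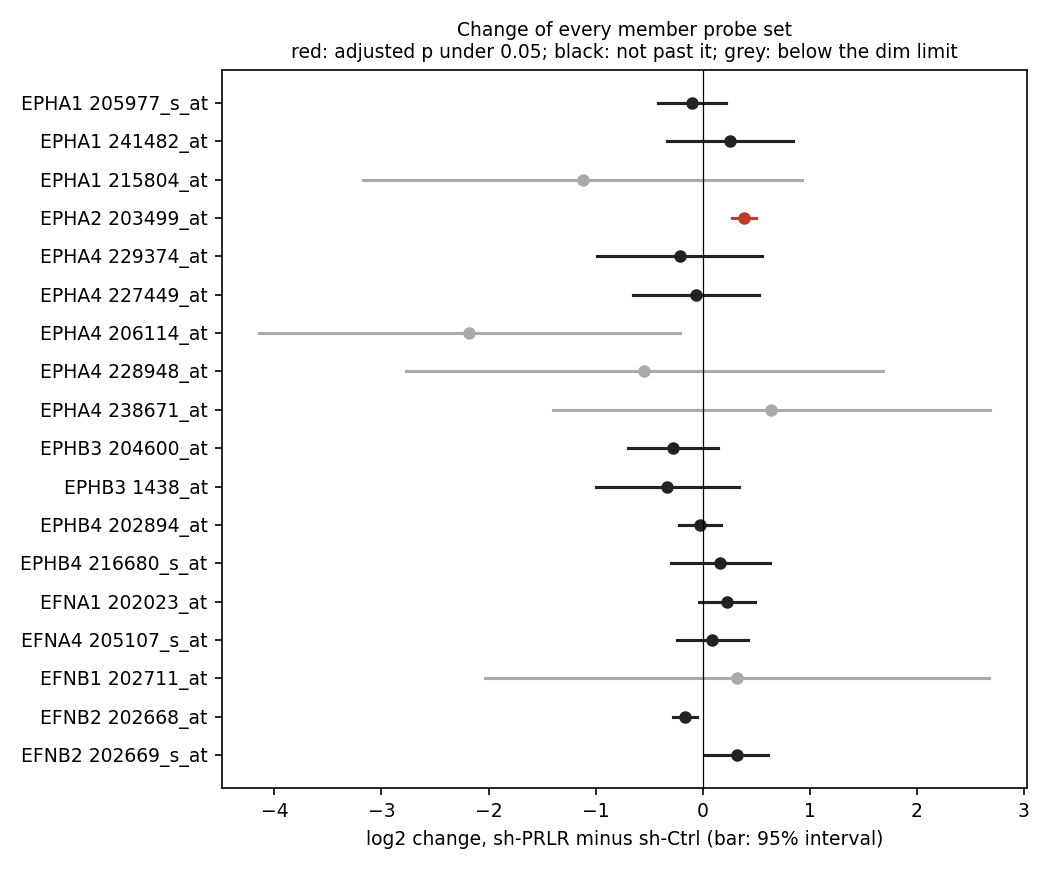
Log2 change (x axis, sh-PRLR minus sh-Ctrl) of each of the 18 member probe sets (y axis), with its 95% interval; red passed an adjusted p of 0.05, black did not, and grey did not and lay below a mean level of 5.93. The interval of EPHA2, from 0.28 to 0.49, is narrow, and those of the grey probe sets are the widest.

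Whether the change of EPHA2 differed from that of the other members was tested on the difference between both genes within each array, a comparison chosen after its call was seen. In 5 of 8 such pairs (EPHA1, EPHB3, EPHB4, EFNA4 and EFNB2) all sh-PRLR differences lay above all sh-Ctrl differences at the brightest probe set of the other gene. This depended on the probe set: against all 17 probe sets of the other members the differences were apart in 7, and of those 5 genes only EFNA4, which has a single probe set, had no probe set with overlap. Every difference contains EPHA2, whose own groups were apart, so these counts in part restate that and are no separate support for its call. The share of all genes whose difference from EPHA2 was apart was not computed. Each SE in this comparison comes from the spread of the differences on these arrays alone. It is not the limma SE given for single genes, so their sizes should not be compared. Against EFNB2 the excess of EPHA2 was 0.55 (SE 0.018) at 202668_at but 0.064 (SE 0.14) at 202669_s_at, where the groups overlapped (exact permutation p = 0.6). Against EPHB4 it was 0.41 (SE 0.11) at 202894_at and 0.22 (SE 0.23) at 216680_s_at, with overlap at the latter. Against EFNA1, its ligand, the excess was 0.16 (SE 0.084) and the groups overlapped (exact permutation p = 0.2). The smallest exact p that 3 against 3 arrays can give is 0.1, which became 0.16 after adjustment over the 8 pairs, so none could pass.

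**Figure D4:**
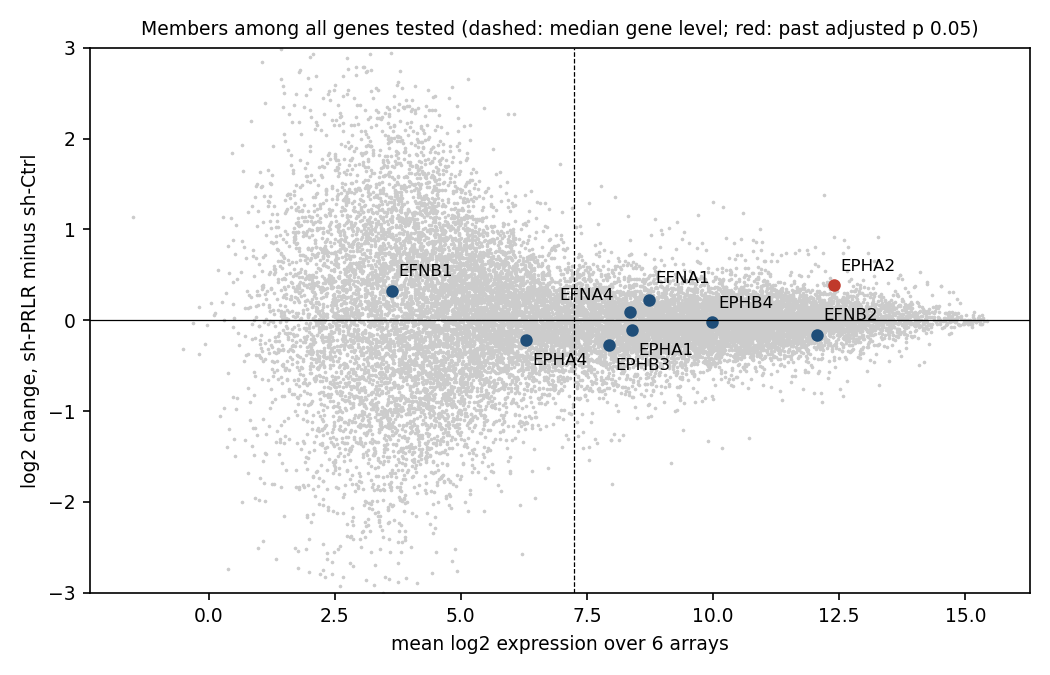
Log2 change (y axis, sh-PRLR minus sh-Ctrl) against mean log2 expression over 6 arrays (x axis) for the 19775 genes tested (grey), with EPHA2 in red and the other 8 measured members in blue; 30 genes lie beyond the y range, and the dashed line is the median gene level of 7.23. Scatter widens below that line, where EPHA4 and EFNB1 lie, and EPHA2 lies far above it.

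The sequence upstream of the gene start is shown for EPHA2, which passed, and for EFNA1 and EFNB2, the other members whose groups were apart. Each is 250 bases long, read 5′ to 3′ on the strand of the gene and ending at the base before the RefSeq start (GRCh38.p14). Capitals mark GC boxes, the letters GGGCGG or CCGCCC, which Sp1-type factors can bind. The windows lie at chr1:16156070-16156319 (minus strand) for EPHA2, chr1:155127626-155127875 (plus strand) for EFNA1 and chr13:106535663-106535912 (minus strand) for EFNB2.
EPHA2: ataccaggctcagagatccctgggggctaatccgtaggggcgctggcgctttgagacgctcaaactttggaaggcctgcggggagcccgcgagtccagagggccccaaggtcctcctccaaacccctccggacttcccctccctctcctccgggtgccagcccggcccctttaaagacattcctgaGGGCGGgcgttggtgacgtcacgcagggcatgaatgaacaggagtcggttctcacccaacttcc
EFNA1: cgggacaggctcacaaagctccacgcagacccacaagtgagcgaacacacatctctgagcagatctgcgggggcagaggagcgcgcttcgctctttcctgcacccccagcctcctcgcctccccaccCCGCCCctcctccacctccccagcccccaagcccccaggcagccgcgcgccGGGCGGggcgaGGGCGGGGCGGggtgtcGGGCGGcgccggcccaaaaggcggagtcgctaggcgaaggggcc
EFNB2: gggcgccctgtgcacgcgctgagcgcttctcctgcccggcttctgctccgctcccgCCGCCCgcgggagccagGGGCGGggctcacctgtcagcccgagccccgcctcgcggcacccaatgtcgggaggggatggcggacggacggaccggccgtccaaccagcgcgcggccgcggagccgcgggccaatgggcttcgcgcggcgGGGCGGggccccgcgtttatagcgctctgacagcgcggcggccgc
RefSeq upstream sequences were found for all 9 measured members, in 10 windows, as EPHA4 has 2. GC boxes were found in 10 of the 10 windows and in 42.6% of all 35116 windows of the same length. EPHA2 held 1, EFNB2 3 and EFNA1 5, with overlapping matches counted. The letters TTCNNNGAA, which STAT factors downstream of the prolactin receptor can bind, were in 0 of the 10 windows and in 6.57% of all windows. The AP-1 letters TGANTCA were in 0 of 10 and in 6.57% as well. GGAATG or its complement CATTCC, the TEAD motif, was in the EPHA2 window alone (11.9% of all windows), and TATAAA or TTTATA in the EFNB2 window alone (10.7%). CACGTG (6.34% of all windows) and CCGGAAG or CTTCCGG (8.52%) were in 0 of 10. All motifs were searched on both strands, and a match or its absence describes these letters in this window only.

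Beyond the members, 59 genes of the family and its signalling were listed, and 55 were measured. Of these, 1 rose and 2 fell, where 7.66% of all genes passed. Among the 55, 38 lay above the median gene level, where 14.6% of genes passed. SDCBP, which encodes syntenin, a PDZ protein that binds the tail of B-type ephrins, rose from 13.85 ± 0.07 to 14.02 ± 0.04 (change 0.18, limma adjusted p = 0.0456). ROCK2, a kinase that drives actomyosin contraction, fell from 11.71 ± 0.06 to 11.46 ± 0.08 (change -0.24, limma adjusted p = 0.0366). TIAM1, an exchange factor that activates Rac downstream of Eph receptors and ephrins, fell from 9.82 ± 0.09 to 9.43 ± 0.18 (change -0.39, limma adjusted p = 0.0471). All 3 are near the threshold: SDCBP kept its call in 3 alternatives, ROCK2 in 5 and TIAM1 in 2, of 14 tried (SDCBP had no value in 1). Leaving out single arrays gave limma adjusted p from 0.0471 to 0.144 for SDCBP, 0.0444 to 0.152 for ROCK2 and 0.0497 to 0.172 for TIAM1, and sh-Ctrl replicate 1, sh-Ctrl replicate 2 and sh-PRLR replicate 3 each ended all 3 calls.

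The 12 other Eph and ephrin genes held 0 calls by limma and 0 with default settings, where 7.66% and 0.0202% of all genes passed. Of these genes 8 lay below the level of 5.93. Of the 12, 1 had an unadjusted p under 0.05, as had 4010 of the 19775 genes. The 1 was EPHB6, a receptor without kinase activity, named after its values were seen. It read 7.23, 7.14 and 7.24 with sh-Ctrl against 7.35, 7.74 and 7.91 with sh-PRLR. The change was 0.46 with the groups apart (limma adjusted p = 0.184). In 2 of the 12 genes the groups were apart, where they were in 25.8% of all genes. Of 16 measured adaptors and kinases 0 passed by limma, and 3 had an unadjusted p under 0.05. All 16 lay above the median gene level, where 3345 of 9887 genes had an unadjusted p under 0.05. Of 5 proteases and phosphatases, 4 of them above the median gene level, 0 passed and 0 had an unadjusted p under 0.05. Above that level 14.6% of genes passed, so 0 of 5 says little. With default settings 0 passed in either list, where 0.0202% of all genes did, so that count says nothing about these genes. The 6 partners of B-type ephrins held the rise of SDCBP.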

How the data were processed

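Total RNA of 6 SW-1990 cultures was labelled with biotin and hybridised to Affymetrix U133 Plus 2.0 arrays, per the labels' protocols. The deposited values are log2 expression for every probe set on every array. Per the submitters' processing notes, the tools were MAS5, RMA and affy, whose roles and versions are not given in the sources used here. The linear mean of each array with 2% trimmed at both ends was 500.0 on all 6, as global scaling gives, so they were used as deposited. Values ran from -4.30 to 15.53, and no detection call was used.

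The platform annotation gave a single gene symbol to 41091 of the 54675 probe sets, several to 1801 and none to 11721, and the 62 Affymetrix controls were left out. The symbols of the 9 measured members were unchanged in RefSeq by gene ID. Some genes of the lists are not reported here.

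The comparison used limma (version 3.58.1, R 4.3.3) with lmFit and eBayes, trend and robust on, and p-values were two-sided. They were adjusted by Benjamini-Hochberg across all genes (across probe sets with 1 symbol for probe-set results), and 0.05 was the threshold. No block was used, as the labels do not say that a replicate number marks a shared culture or day. The code was tested on simulated data. The members, lists, test and rule for named genes were chosen with earlier results of these data known. The rule names all members, PRLR, and up to 4 called genes of each list whose higher group lies above the median gene level. Alternatives were default eBayes, quantile normalisation, centring on the median gene, leaving out the dimmest 40% of genes, the mean of a gene's probe sets, leaving out _x_at and _s_at probe sets, the replicate block and each array left out. Centring on the median of all probe sets, and EPHA2 against every probe set of the other members, were added after seeing the data. Differences between genes or probe sets were tested by exact permutation of the arrays (10 splits). P-values measure only the spread between these arrays, and their number limits the precision. Python 3.11.15 with matplotlib 3.10.9 drew the figures.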

Additional observations from a re-analysis of the deposited data

How the results depend on the processing

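Of the 9 measured members, 1 passed in 11 of 14 alternatives. By limma 0 passed with default settings or with centring on the median of all probe sets (1 with an unadjusted p under 0.05 in each). Without the dimmest 40% of genes 2 of 8 tested members passed, where 17.1% of genes passed. Without _x_at and _s_at probe sets 8 members were tested as well. Member probe sets called went from 1 to 0 with centring on the median of all probe sets and with default settings (2 with an unadjusted p under 0.05 in each). With default settings 0 of all 41091 probe sets passed, so the count there says nothing about the members. The 55 pathway genes, 3 called by limma, gave 0 with default settings, with centring on the median gene and with the mean of a gene's probe sets (8 with an unadjusted p under 0.05 in each), and 0 with centring on all probe sets (5 unadjusted). Of all 19775 genes, those with an unadjusted p under 0.05 numbered 3209, 3639, 3070 and 3008 in these settings, in that order. The pathway genes gave 1 of 46 tested without _x_at and _s_at probe sets and 1 of 55 with the replicate block. Without the dimmest genes 6 of 44 passed, where 17.1% of all genes passed. When single arrays were left out, 0 to 3 of the 55 passed. Genes called went from 1514, 43.6% of them higher, to 4 with default settings, 990 with centring on the median gene (57.6% higher), 504 with centring on all probe sets (28.4% higher) and 609 with the mean of probe sets, and to between 665 and 1322 when single arrays were left out, all but sh-PRLR replicate 1 taking it below 1514 by over 1.5 times. These centrings moved the median change of all genes by under 0.1.

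The change reversed, without passing, for EFNB2 (0.079) and EPHB4 (0.070) with the mean of probe sets, for EPHB4 (0.023) with centring on the median gene, and for EPHA1 (0.25) without _s_at probe sets. Leaving out single arrays gave -0.082 to 0.052 for EPHB4, -0.33 to 1.32 for EFNB1, -0.0073 to 0.26 for EFNA4 and -0.58 to 0.11 for EPHA4. The cause of these shifts was not tested. With the replicate block 1090 genes passed, and the call of EPHA2 was kept (limma adjusted p = 0.00619). Same-numbered arrays had correlations of -0.056, 0.059 and -0.10 between their deviations from the group means over genes above the median level. Between differently numbered arrays these ran from -0.051 to 0.11. Whether a replicate number marks a shared culture or day cannot be told from 3 arrays a group. The dim level of EFNB1 and of 3 EPHA4 probe sets limits what can be seen there.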

Other observations

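Probe sets of the antisense transcripts EPHA1-AS1 and EPHA2-AS1, which lie beside EPHA1 and EPHA2, were in the fit over all probe sets but are not members. EPHA2-AS1 (236601_at) read 2.49, 2.32 and 2.67 with sh-Ctrl against 2.12, 1.83 and 4.52 with sh-PRLR, below the level of 5.93 on every array and with overlapping groups. EPHA1-AS1 was as dim, at 2.63 ± 2.07 and 1.64 ± 2.47 for 1562249_at and at 2.70 ± 0.74 and 2.78 ± 1.01 for 238263_at.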
